A study of Mus musculus with 6 samples.

Results

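Nkx2-1, the Foxa factors and the surfactant genes are the transcription factors that give the lung epithelium its identity and the genes they act on. The group held 10 genes of the 22180 measured by name, and all 10 were found, each by 1 probe set. They are the factors Nkx2-1, Foxa1, Foxa2 and Gata6, the surfactant genes Sftpb, Sftpc, Sftpd and Abca3, the airway gene Scgb3a2, and Sfta3-ps, a long noncoding RNA gene. The first 9 were listed by function, with earlier results of these data known. Sfta3-ps was chosen by its measured log2 difference between mutant and control lungs, which was negative, so its values are a description, with no test, and it enters no count below.

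The mutant group was 3 lung samples of genotype Fzd2Flox/Flox with 1 Shh cre allele. The control group was 3 lung samples with 1 Shh cre allele and no floxed Fzd2 named in the labels. All were lung buds dissected whole from E12.5 mouse embryos, an age at which airways are branching. The Cre enzyme is made from the Shh gene, which the lung epithelium expresses, so the design aims at loss of the Wnt receptor gene Fzd2 in the epithelium alone. Both groups carry the Cre allele, and no array held a lung without it. The labels call the arrays biological replicates, without saying whether lungs were pooled. The p-values set group differences against the spread among these 3 and 3 arrays, which need not be the spread between single lungs.

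Nkx2-1, a homeodomain protein, is the earliest marker of the lung field within the foregut and is needed for the lung epithelium to form. Foxa1 and Foxa2 are forkhead proteins that open chromatin in endoderm, and Gata6 is a zinc finger protein of endoderm that is also made in mesenchyme. Together these factors bind the promoters of the genes for surfactant, the mixture of lipid and protein that lowers surface tension in the airspaces after birth. At the branching stage Sftpc marks the distal epithelium, while the other surfactant genes reach high levels only later in gestation. Sfta3-ps, which the reference gene table also lists as Nanci, lies next to Nkx2-1, and in mouse lung its RNA is known to help maintain Nkx2-1 expression.

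Promoter sequences of RefSeq (GRCm38.p6) were found for 5 of the 10 genes, Nkx2-1, Foxa1, Foxa2, Sftpb and Abca3. The 250 bases before the start are printed for a pair of factor genes with lower values in mutant lungs and for the surfactant gene Sftpb, whose values were not lower. Capitals mark core letters of the motif of NKX2-1 (CTCAAG, or CTTGAG on the other strand), FOXA (TGTTTAC or GTAAACA) or GATA factors (AGATAA or TTATCT).
Nkx2-1, chr12:56536909-56537158, minus strand: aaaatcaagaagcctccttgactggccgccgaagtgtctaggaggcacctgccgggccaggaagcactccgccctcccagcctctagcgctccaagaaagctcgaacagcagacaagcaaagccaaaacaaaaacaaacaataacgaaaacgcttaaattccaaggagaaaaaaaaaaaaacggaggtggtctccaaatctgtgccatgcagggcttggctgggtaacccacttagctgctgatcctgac
Foxa1, chr12:57546112-57546361, minus strand: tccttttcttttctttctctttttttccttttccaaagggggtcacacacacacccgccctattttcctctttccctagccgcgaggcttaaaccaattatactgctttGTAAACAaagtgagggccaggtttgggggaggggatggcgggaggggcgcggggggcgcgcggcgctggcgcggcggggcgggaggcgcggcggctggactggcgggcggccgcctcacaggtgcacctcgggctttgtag
Sftpb, chr6:72304360-72304609, plus strand: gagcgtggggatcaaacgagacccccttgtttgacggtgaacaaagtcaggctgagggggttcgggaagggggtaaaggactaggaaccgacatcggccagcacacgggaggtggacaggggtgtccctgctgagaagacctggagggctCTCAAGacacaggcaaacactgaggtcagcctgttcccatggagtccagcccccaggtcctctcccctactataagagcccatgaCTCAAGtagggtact
The Sftpb window held the NKX2-1 letters at 2 places, from 100 to 95 and from 15 to 10 bases before the start. The Foxa1 window held the FOXA letters once, from 141 to 135 bases before the start, and the Nkx2-1 and Abca3 windows held none of the 3 motifs. Of the 3 windows listed for Foxa2, the third held the NKX2-1 and GATA letters once each, sharing 2 bases. Among all 32851 windows of this length, 13.3% held the NKX2-1 letters, 3.17% the FOXA letters and 9.99% the GATA letters. A match is a run of letters and not a measured binding site.

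Nkx2-1 and Sftpc, which mark lung epithelium, stood at percentiles 87.2 and 91 of all genes by mean value. Some arrays stood apart in other genes. Fzd2 itself had log2 values of 9.67, 9.07 and 9.54 in mutant replicates 1 to 3, against 9.57, 9.82 and 9.75 in control replicates 1 to 3, and the groups overlapped (log2 difference -0.29, SE 0.15, limma adjusted p = 0.475). Mutant replicate 2 was high in genes known from adipose tissue, with a mean over 8 genes of 9.79. Control replicate 3 came next at 7.52, and the remaining arrays were at most 7.15. Control replicate 1 was high in genes known from adult small intestine (mean of 10 genes 9.52, against at most 6.29). Control replicate 2 was the only array without Y-linked signal. Epithelial markers moved with the groups: the mean of 25 pan-epithelial genes was 8.76 to 8.90 in mutant lungs and 9.04 to 9.10 in control lungs. Of the 25, 16 were lower and 0 higher at an unadjusted p under 0.05 (all genes, 5.15% and 7.34%). Mesenchyme markers lay the other way, with means of 10.43 to 10.48 over 18 genes in mutant lungs and 10.29 to 10.33 in control lungs. However, 7 of the 18 had lower means. At an unadjusted p under 0.05, 0 of the 18 were lower and 8 higher (all genes, 5.15% and 7.34%). The means of 11 leukocyte markers were higher in mutants too (8.17 to 8.33 against 8.09 to 8.11), while 11 endothelial markers overlapped (9.82 to 9.92 against 9.85 to 9.94). At that p, beside the same shares of all genes, 0 leukocyte markers were lower and 4 higher. Among endothelial markers 1 was lower and 0 higher. At a limma adjusted p under 0.05 (all genes, 0.0631%), 1 pan-epithelial gene was lower and 1 mesenchyme gene was higher. No leukocyte or endothelial marker passed. In whole lung, fewer cells of a type and less RNA per cell cannot be told apart. Epithelial genes are set against the members below, and the part of the other markers was not tested.

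Nkx2-1 and both Foxa genes had lower values on every mutant array than on any control array, whereas Gata6 had a higher mean in mutant lungs and none of the 4 surfactant genes separated the groups. No tested gene of the 9 passed limma, a linear model test with a shared variance estimate, at an adjusted p under 0.05 over all genes, a threshold that 0.0631% of all genes passed. An unadjusted p under 0.05 was found for 3 genes with lower values (all genes, 5.15%) and for 1 with a higher value (all genes, 7.34%). The 3 lower genes were Nkx2-1, Foxa1 and Foxa2 in every fit that left out 1 array, joined by Sftpc without mutant replicate 1. The higher gene was Gata6, which did not reach that p without mutant replicate 1, mutant replicate 3, control replicate 1 or control replicate 3, while Sftpb reached it without mutant replicate 2 or control replicate 3. The groups did not overlap, with mutants lower, in the same 3 genes (all genes, 8.83%), and did not overlap with mutants higher in 0 of 9 (all genes, 10.6%). Beside the same shares of all genes, 16 of the 25 pan-epithelial genes also did not overlap with mutants lower, and 0 with mutants higher. The median log2 difference of the 9 was 0.02, beside 0.01 for all genes.

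**Figure D1:**
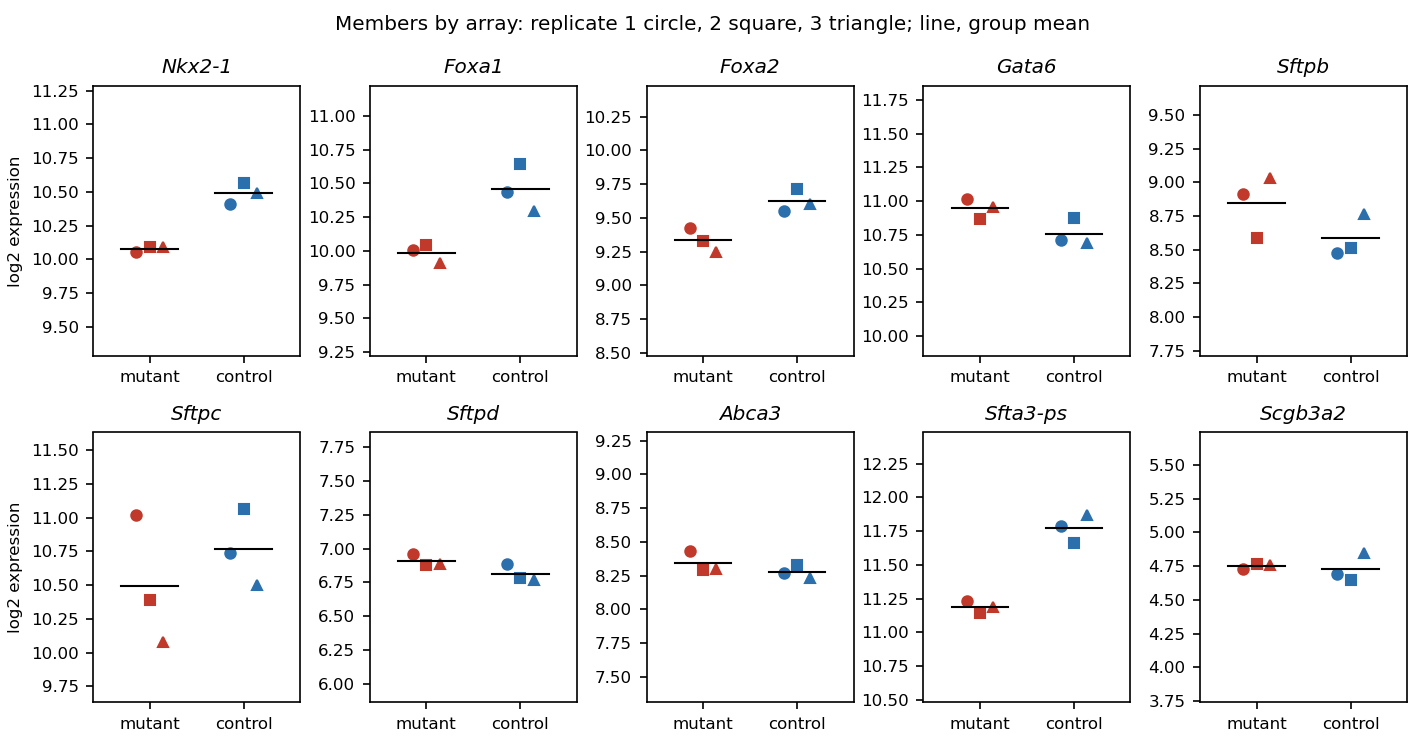
Log2 expression of each of the 10 genes (vertical axes, each spanning the same range) on the 3 mutant and 3 control arrays. Circles, squares and triangles are replicates 1, 2 and 3 and lines are group means. The mutant points of Nkx2-1, Foxa1, Foxa2 and Sfta3-ps lie below all control points, and those of Sftpc spread over the control range and beyond it.

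Nkx2-1 had log2 values of 10.05, 10.09 and 10.09 in mutant replicates 1 to 3, against 10.41, 10.57 and 10.49 in control replicates 1 to 3. The 3 mutant values lay close together, and all were below the lowest control. The log2 difference was -0.41 (SE 0.05, 95% interval -0.54 to -0.28, n = 3 and 3), which puts mutant lungs at 75.3% of the control level, and it missed the threshold (limma adjusted p = 0.0749). With limma's trended, robust variance estimate the adjusted p was 0.0192, and over the other alternatives tried it ran up to 0.777. Without mutant replicate 2 and control replicate 1, the arrays that stood furthest apart in adipose and intestinal genes, the log2 difference was -0.46. That was the largest deficit among the alternatives (limma adjusted p = 0.18). The smallest, -0.37, came without control replicate 2 (limma adjusted p = 0.259).

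Foxa1 had log2 values of 10.002, 10.043 and 9.908 in mutant replicates 1 to 3, against 10.44, 10.64 and 10.29 in control replicates 1 to 3. Its mutant values were all below the controls, among which replicate 2 was highest and replicate 3 lowest. The log2 difference was -0.47 (SE 0.09, limma adjusted p = 0.152), 72.1% of the control level. Foxa2, the paralog that the early endoderm also requires, had log2 values of 9.42, 9.33 and 9.25 in mutant lungs, against 9.55, 9.72 and 9.60 in control lungs. The gap between the highest mutant and the lowest control was narrower than the range of either group. The log2 difference was -0.29 (SE 0.07, limma adjusted p = 0.199), 81.8% of the control level.

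Gata6 ran the other way from the other 3 factors. Its log2 values were 11.01, 10.87 and 10.96 in mutant replicates 1 to 3, against 10.71, 10.88 and 10.69 in control replicates 1 to 3, so that mutant replicate 2 lay just under control replicate 2. The log2 difference was 0.19 (SE 0.07, limma adjusted p = 0.349), 114% of the control level. Set against Nkx2-1 on the same array, with the control mean at 0, Gata6 stood 0.69, 0.50 and 0.59 log2 units higher in mutant replicates 1 to 3, and between -0.07 and 0.04 in the controls. Because Nkx2-1 was itself lower, a gene with no difference stands higher on that scale, as dim Scgb3a2 did by 0.43, and Foxa2, Sftpb, Sftpd and Abca3 also stood higher, by 0.12, 0.67, 0.51 and 0.47.

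Sftpc, which encodes the hydrophobic surfactant protein C, varied more among replicates than any other of the 10 genes. Its log2 values were 11.02, 10.39 and 10.08 in mutant replicates 1 to 3, against 10.74, 11.06 and 10.50 in control replicates 1 to 3. Mutant replicate 1 was almost as high as the highest control, and mutant replicates 2 and 3 were below all controls. The log2 difference was -0.27 (SE 0.24, limma adjusted p = 0.656), and the 95% interval from -0.83 to 0.28 covers both a larger deficit than that of Nkx2-1 and a gain. The difference was -0.53 without mutant replicate 1 and -0.06 without mutant replicate 3.

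Sftpb encodes surfactant protein B, which organises surfactant lipid into films, and its promoter is the one printed above with 2 matches to the NKX2-1 letters. Its log2 values were 8.91, 8.59 and 9.03 in mutant replicates 1 to 3, against 8.47, 8.52 and 8.76 in control replicates 1 to 3. Mutant replicate 2 fell within the control range and the other mutants above it. The log2 difference was 0.26 (SE 0.12, 95% interval -0.03 to 0.55, limma adjusted p = 0.439), and it was 0.16 with mutant replicate 3 left out and 0.39 with mutant replicate 2 left out.

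Sftpd, the gene of a collectin that binds microbes, and Abca3, the gene of the transporter that loads lipid into lamellar bodies, had the smallest differences among the surfactant genes. Sftpd had log2 values of 6.96, 6.88 and 6.89 in mutant lungs, against 6.88, 6.78 and 6.77 in control lungs (log2 difference 0.10, SE 0.05, limma adjusted p = 0.487). Abca3 had log2 values of 8.43, 8.29 and 8.30 in mutant lungs, against 8.27, 8.33 and 8.24 in control lungs (log2 difference 0.06, SE 0.06, limma adjusted p = 0.681). Both pairs of groups overlapped. Scgb3a2, which encodes a secretoglobin of the airway, was near the bottom of the scale of these arrays, which ran from 3.55 to 14.04. It had log2 values of 4.73, 4.77 and 4.76 in mutant lungs, against 4.70, 4.65 and 4.85 in control lungs (log2 difference 0.02, SE 0.06, limma adjusted p = 0.914), and its mean stood at percentile 5.7 of all genes.

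**Figure D2:**
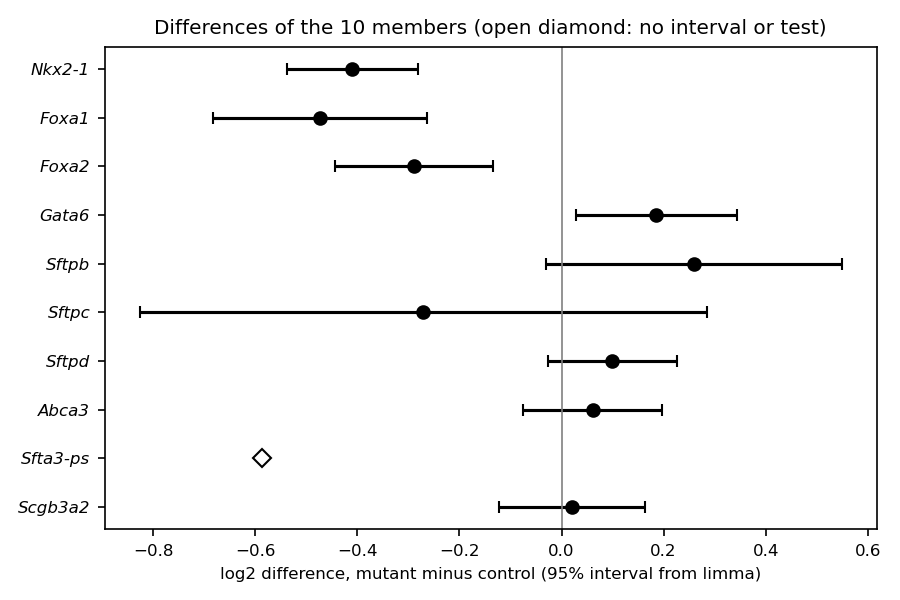
Log2 difference of the 10 genes, mutant minus control (horizontal axis), with the 95% interval from limma for the 9 tested genes. Intervals of Nkx2-1, Foxa1 and Foxa2 lie below 0, that of Gata6 lies above 0, and that of Sftpc, from -0.83 to 0.28, is the widest.

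Sfta3-ps had log2 values of 11.23, 11.14 and 11.19 in mutant replicates 1 to 3, against 11.79, 11.66 and 11.87 in control replicates 1 to 3. The mutant arrays were all below the control arrays, which is the pattern it was chosen for. Its log2 difference was -0.59 (SE 0.06), 66.6% of the control level. On the same arrays the log2 ratio of Sfta3-ps to Nkx2-1, with the control mean at 0, was -0.11, -0.23 and -0.19 in mutant replicates 1 to 3 and 0.10, -0.19 and 0.09 in control replicates 1 to 3, and these overlapped.

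The genes beside Nkx2-1 and Sfta3-ps in the reference gene table (GRCm38.p6) were read as well, 5 measured genes on each side. Other than Sfta3-ps, 3 neighbours with lower values (all genes, 5.15%) and 1 with higher values (all genes, 7.34%) had an unadjusted p under 0.05, and 0 passed over all genes. The long noncoding RNA gene Gm19990 had log2 values of 8.49, 8.15 and 8.41 in mutant lungs, against 8.87, 8.94 and 8.86 in control lungs (log2 difference -0.54, SE 0.09, limma adjusted p = 0.108). Mbip, which lies between it and Sfta3-ps and encodes a subunit of a histone acetyltransferase complex, had log2 values of 11.00, 10.93 and 11.04 in mutant lungs, against 11.20, 11.11 and 11.23 in control lungs (log2 difference -0.20, SE 0.06, limma adjusted p = 0.277).

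On the other side of Nkx2-1 the next measured gene, the long noncoding RNA gene C87198, had log2 values of 7.45, 7.82 and 7.74 in mutant lungs, against 8.02, 8.34 and 8.16 in control lungs (log2 difference -0.50, SE 0.11, limma adjusted p = 0.198). The homeobox gene Nkx2-9, which follows it, had higher values in mutant lungs, 7.57, 7.45 and 7.46, against 7.32, 7.16 and 7.28 in control lungs (log2 difference 0.24, SE 0.06, limma adjusted p = 0.237). The remaining neighbours, Ralgapa1, Brms1l, Pax9, Slc25a21 and Gm20016, had log2 differences between -0.07 (Ralgapa1, lower on every mutant array) and 0.12 (Slc25a21, higher on every mutant array). The labels do not give the strand that each probe set reads, so RNA of overlapping or antisense genes at this locus cannot be told apart.

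**Figure D3:**
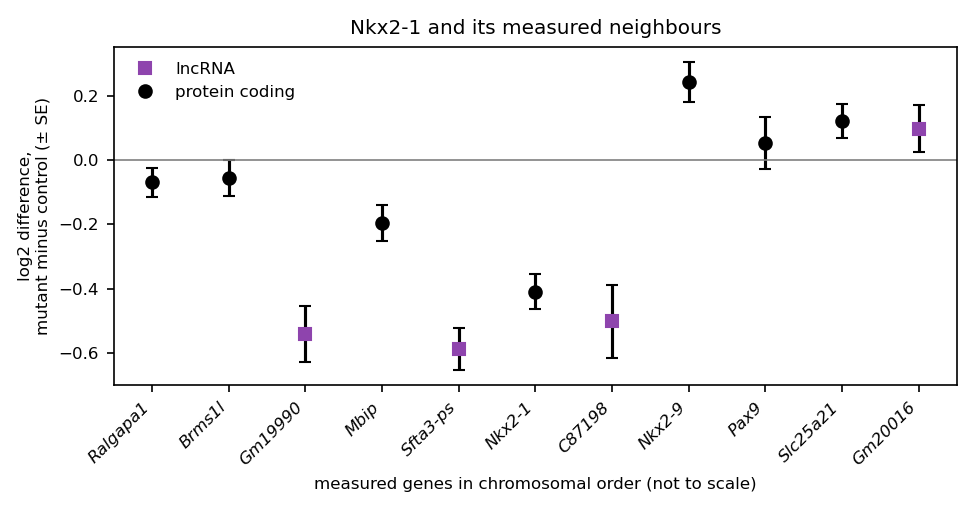
Log2 difference, mutant minus control, with limma's SE (vertical axis), for Nkx2-1 and the 5 measured genes on each side in chromosomal order, not to scale. Values from Gm19990 to C87198 lie between -0.59 (Sfta3-ps) and -0.20 (Mbip), and values beyond them lie between -0.07 and 0.24.

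Because the pan-epithelial genes were also lower in mutant lungs, each gene was set against their mean on the same array, with the control mean at 0. Nkx2-1 then stood at -0.26, -0.07 and -0.20 in mutant replicates 1 to 3, against -0.09, 0.05 and 0.04 in control replicates 1 to 3. The groups overlapped, the difference was -0.18 log2 units, and p was 0.2 by an exact permutation test (two-sided), whose smallest possible value with these 6 arrays is 0.1. Against the median of the pan-epithelial genes in place of their mean, the difference was -0.06. Limma with the pan-epithelial mean as a further term gave Nkx2-1 a log2 difference of -0.43 (adjusted p = 0.777). That mean was lower on every mutant array than on any control array, so this fit can hardly tell it apart from genotype. The pan-epithelial mean itself had a log2 difference of -0.23.

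Foxa1 stood at -0.28, -0.09 and -0.35 relative to the pan-epithelial mean in mutant lungs, against -0.03, 0.16 and -0.13 in control lungs (exact permutation p = 0.2). Foxa2 stood at -0.02, 0.03 and -0.18 in mutant lungs, against -0.09, 0.07 and 0.02 in control lungs (exact permutation p = 0.6). Both overlapped with the controls on this scale. Sfta3-ps, again without a test, stood at -0.37, -0.31 and -0.39 in mutant lungs, against 0.00, -0.14 and 0.14 in control lungs, and did not overlap. Because it was chosen for lower mutant values in these data, its separation on this scale is a description too.

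Gata6 and Sftpb stood above the controls on the same scale. Gata6 was at 0.43, 0.43 and 0.40 in mutant lungs, against -0.07, 0.09 and -0.03 in control lungs. Sftpb was at 0.51, 0.32 and 0.64 in mutant lungs, against -0.13, -0.09 and 0.22 in control lungs. Each gave the smallest value the exact permutation test allows, p = 0.1, as did Sftpd, Abca3 and Scgb3a2, whose own levels hardly differed. The pan-epithelial mean was lower on every mutant array than on any control array. A gene of unchanged level therefore stands higher on this scale, and Gata6 and Sftpb overlapped between groups in their own values. Sftpc overlapped, with a difference of -0.04 (exact permutation p = 0.9). None of these 9 comparisons can pass a threshold of 0.05, before or after adjustment.

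**Figure D4:**
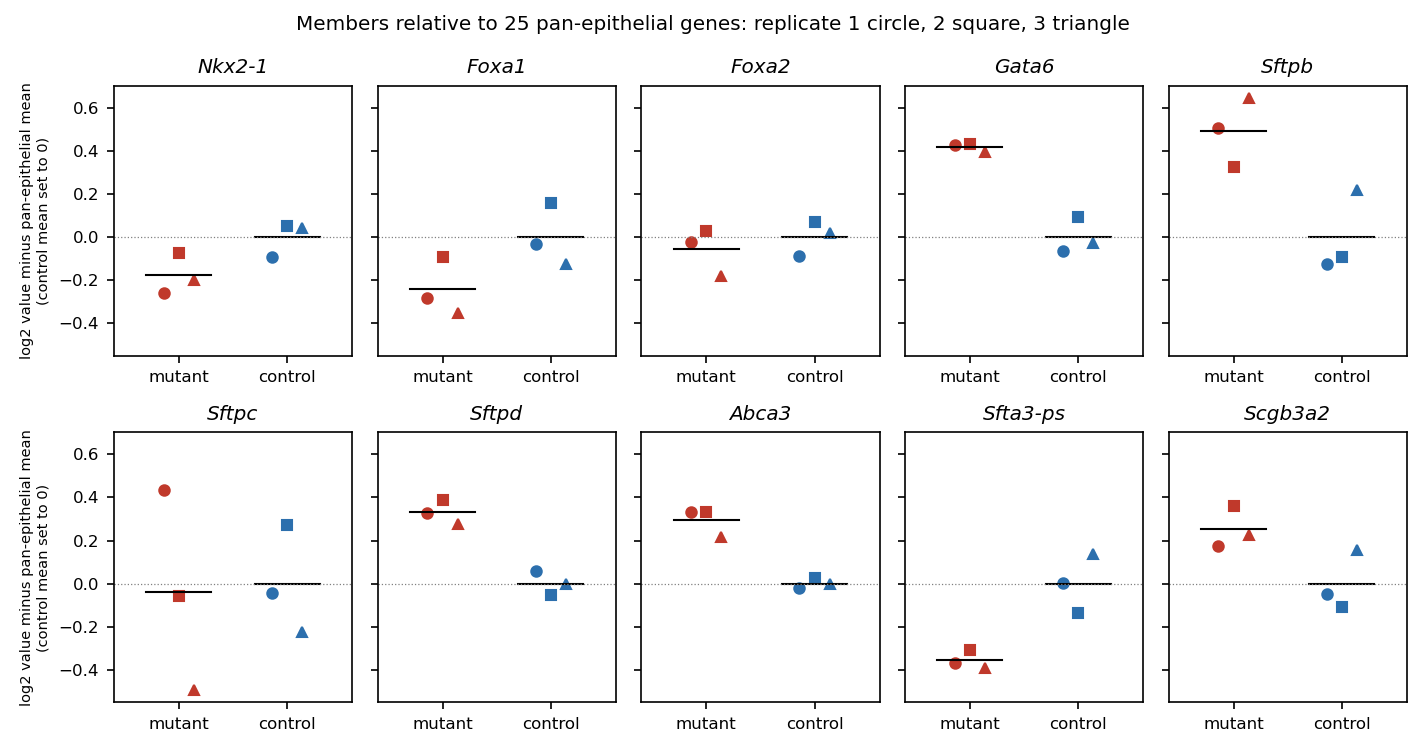
Log2 value of each gene minus the mean of 25 pan-epithelial genes on the same array (vertical axis, control mean at 0), by mutant and control group. Circles, squares and triangles are replicates 1, 2 and 3 and lines are group means. Nkx2-1, Foxa1, Foxa2 and Sftpc overlap between groups, and 5 other genes lie higher in all mutants. Sfta3-ps, chosen for its lower mutant values, lies lower in all mutants.

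The profiles most like that of Nkx2-1 over the 6 arrays were sought by the root mean square distance between profiles centred on their means. The nearest was Irx2, an Iroquois homeobox gene, at a distance of 0.01 log2 units, with values of 9.985, 10.016 and 10.003 in mutant lungs and 10.37, 10.48 and 10.42 in control lungs. Next came Mir3094 at 0.04, Efcab1 at 0.04, Prom1, which encodes a membrane protein of apical protrusions, at 0.04, and the epithelial splicing regulator gene Esrp2 at 0.05. The log2 differences of these 5 genes were between -0.42 and -0.33, which follows from the way they were chosen. The genes nearest to Sftpc were farther from it, at 0.10 (M1ap) to 0.19 (Rxfp1), with Zfp984, Mir130a and Kifc1 between. All 5 had a high value in mutant replicate 1 relative to the other mutants, which also follows from the choice by profile.

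Other transcription factor genes of the lung epithelium included several with values as low relative to controls as those of the factors above. Of 25 measured, 11 had lower and 1 had a higher value at an unadjusted p under 0.05 (all genes, 5.15% and 7.34%), 13 did not reach it, and 0 passed over all genes. Their median log2 difference was -0.10, beside 0.01 for all genes. Without mutant replicate 2 there were 7 lower and 2 higher, with control replicate 1 also left out 8 lower and 1 higher, and leaving out any 1 array gave 7 to 11 lower and 0 to 2 higher.

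Sox2, the factor of the proximal airway, had log2 values of 8.38, 8.74 and 8.87 in mutant lungs, against 9.18, 9.53 and 9.25 in control lungs (log2 difference -0.66, SE 0.14, limma adjusted p = 0.179). All 3 mutants were below all 3 controls. Irx2, given above, had the smallest adjusted p of the list (log2 difference -0.42, SE 0.05, limma adjusted p = 0.0521), and the related Irx3, Irx5 and Irx1 had log2 differences of -0.31, -0.24 and -0.24. Grhl2, a grainyhead factor that maintains epithelial junctions, had a log2 difference of -0.40 (SE 0.07, limma adjusted p = 0.14). Klf5 (-0.34), the growth regulator gene Mycn (-0.30), Elf3 (-0.26), the FGF-responsive Etv5 (-0.23) and Foxp4 (-0.22), a forkhead factor of the lung epithelium, were also lower. The higher gene was Etv4 (0.18), the paralog of Etv5, with log2 values of 7.99, 7.95 and 8.01 in mutant lungs, against 7.78, 7.72 and 7.91 in control lungs.

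Genes of the surfactant system and the type II cell, which makes surfactant, had values in both directions. Of 22 measured, 6 were lower (all genes, 5.15%) and 2 higher (all genes, 7.34%) at an unadjusted p under 0.05, 14 did not reach it, 0 passed over all genes, and the median log2 difference was 0.015. Muc1, an apical membrane mucin gene, had log2 values of 7.13, 7.19 and 7.30 in mutant lungs, against 7.58, 7.58 and 7.56 in control lungs (log2 difference -0.36, SE 0.06, limma adjusted p = 0.0947). The claudin gene Cldn18 had log2 values of 9.39, 9.02 and 9.01 in mutant lungs, against 9.53, 9.58 and 9.58 in control lungs (log2 difference -0.42, SE 0.10, limma adjusted p = 0.212). Both genes separated the groups, and controls were tighter than mutants in each.

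Also lower were the lung chemokine gene Cxcl15 (log2 difference -0.35), Lgi3 (-0.26), the surfactant-associated gene Sfta2 (-0.19) and the complement gene Hc (-0.15). Higher were Egfl6, the gene of a secreted EGF-like protein (0.28, SE 0.08, limma adjusted p = 0.263), and Napsa, the gene of a protease that processes surfactant protein B (0.38, SE 0.14, limma adjusted p = 0.345). Napsa values were 6.81, 6.97 and 7.34 in mutant lungs, against 6.83, 6.59 and 6.57 in control lungs, so that mutant replicate 1 lay within the controls. Without control replicate 3, only 4 genes of this list had an unadjusted p under 0.05, 3 lower and 1 higher.

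Of 11 genes of airway secretory cells, 3 were lower (all genes, 5.15%) and 1 higher (all genes, 7.34%) at an unadjusted p under 0.05, 0 passed over all genes, and the median log2 difference was 0.03. Aldh1a1, a gene of retinoic acid synthesis, had log2 values of 8.51, 8.51 and 8.47 in mutant lungs, against 9.05, 8.79 and 9.03 in control lungs (log2 difference -0.46, SE 0.08, limma adjusted p = 0.111). The mutant values were nearly equal and all below the controls. Cldn10 (-0.14) and the club cell gene Scgb1a1 (-0.15) were lower and the lactoferrin gene Ltf (0.18) was higher, but Scgb1a1 and Ltf lay below the 30th percentile of genes by mean value. The list had 2 such genes, both lower, without mutant replicate 2 and control replicate 1, and 2 without control replicate 2 or control replicate 3.

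Nkx2-1 is also a factor of the thyroid, and thyroid genes were read as markers of tissue that could lie near a dissected lung. Of 9 measured, 9 had a higher mean in mutant lungs, but 0 were lower and 1 was higher at an unadjusted p under 0.05 (all genes, 5.15% and 7.34%), with 0 over all genes and a median log2 difference of 0.08. The higher gene was Slc5a5, the iodide transporter gene (log2 difference 0.11, SE 0.05, limma adjusted p = 0.396). The list mean was 6.93, 7.13 and 7.01 in mutant replicates 1 to 3, against 6.97, 6.88 and 6.89 in control replicates 1 to 3. The groups overlapped, and the highest mean was that of mutant replicate 2, the array high in adipose genes. The gene of thyroglobulin, Tg, named after its values were seen, had 7.24, 7.30 and 7.20 in mutant lungs, against 7.27, 7.28 and 7.19 in control lungs. Genes of other endodermal organs had means over 11 genes of 6.92, 6.98 and 7.24 in mutant replicates 1 to 3, against 7.45, 6.75 and 6.79 in control replicates 1 to 3, and only control replicate 1, which was high in intestinal genes, lay above the mutants. Of these 11 genes, the mutant mean was below the control mean in 5 and above it in 6. At an unadjusted p under 0.05, 0 were lower and 1 higher (all genes, 5.15% and 7.34%), with 0 over all genes. The higher gene, Afp of fetal liver and yolk sac, was named after its values were seen, so its values are a description. It had 7.94, 8.10 and 9.53 in mutant lungs, against 7.36, 7.30 and 7.50 in control lungs (log2 difference 1.14).

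**Figure D5:**
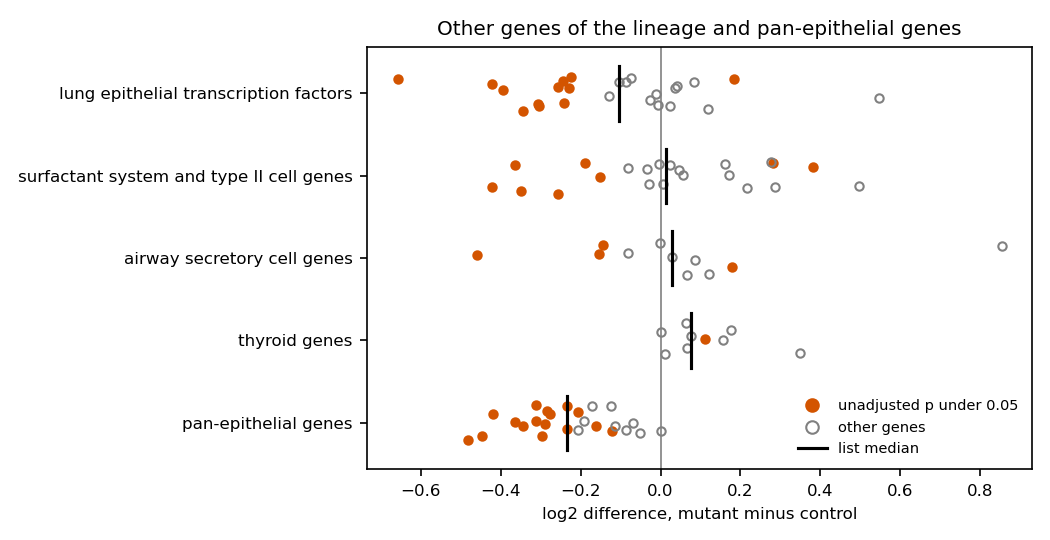
Log2 difference, mutant minus control (horizontal axis), of each measured gene in 4 lists of lineage genes and in the pan-epithelial list. Filled points have an unadjusted p under 0.05 and bars are list medians, which run from -0.23 for pan-epithelial genes and -0.10 for transcription factors to 0.08 for thyroid genes. Vertical scatter within a list has no meaning.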

How the data were processed

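Total RNA of 6 lung samples, 100 ng each, was copied from poly(T) primers, amplified and hybridised to 1-colour arrays, per the labels' protocols. The deposited values are log2 expression per probe set, made by the authors, for which the submitters' processing notes name oligo and RMA (background correction, normalization across arrays, summary of probes). Their versions, build and filters: not given in the sources used here. The log2 scale was read from the values. RMA brings the arrays to nearly the same distribution (array medians 7.29 to 7.32 here), so a shift common to most genes would largely not appear. The 3 arrays a group limit the precision.

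Of 41345 probe sets, 23521 carried 1 gene symbol, 1814 several and 16010 none here. The probe set with the highest mean stood for each of 22180 genes. The test was limma (version 3.58.1, R 4.3.3) with lmFit and eBayes, no covariate, two-sided, with Benjamini-Hochberg adjustment over all genes and a threshold of 0.05, and the code was tested on simulated data. A log2 difference is mutant minus control. Figures were drawn with matplotlib 3.10.9. Genes named are all 10 members, list genes with an unadjusted p under 0.05, the 5 measured neighbours on each side of Nkx2-1, and the 5 closest profiles to Nkx2-1 and to Sftpc, leaving out symbols of predicted transcripts among profiles. Fzd2 was read as a check of the labels, and genes outside this rule are said to be named after their values were seen. Members and lists were chosen with earlier results of these data known.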

Additional observations from a re-analysis of the deposited data

How the results depend on the processing

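Each of the 8 tested genes other than Scgb3a2 kept its direction under every alternative run, which were a further quantile normalization, a filter on dim genes, trended robust variances, array weights, the replicate block, averaged probe sets, each array left out, and mutant replicate 2 and control replicate 1 left out together. The Scgb3a2 difference ran from -0.0205 (control replicate 2 left out) to 0.0785 (control replicate 3 left out), and was -0.0045 without mutant replicate 2 and control replicate 1. The count of tested genes past the threshold was 1, Nkx2-1, with trended robust variances (log2 difference -0.4096, limma adjusted p = 0.0192) and 1 at an adjusted p under 0.10, and 0 with any array left out. Leaving out 1 array gave Nkx2-1 differences from -0.4489 to -0.371. A difference of -0.4336 came from the fit that adds the pan-epithelial mean (limma adjusted p = 0.777), which can hardly tell that mean apart from genotype. Leave-one-out counts at an unadjusted p under 0.05 ran from 4 to 9 for surfactant system genes, 2 to 3 for airway secretory genes and 0 to 2 for thyroid genes. The thyroid count was 0 after quantile normalization or with trended robust variances, and the airway count was 2 with dim genes left out and 2 without mutant replicate 2 and control replicate 1. The labels do not say whether replicate numbers pair the samples. Correlations over genes of same-numbered deviations were -0.045, -0.061 and 0.074, and those of other pairs ran from -0.094 to 0.137. They show no pairing but do not settle the question. With the replicate block Nkx2-1 had the same difference of -0.4096 with limma adjusted p = 0.223, and 0 tested genes passed.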
